A study of Mus musculus with 26 samples.

Results

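Lung of mice with both Fgfr3 and Fgfr4 mutated (double knockout, DKO) was compared with lung of compound heterozygotes (DHet) on the arrays whose titles give an age of 1 day. These are 6 of the 26 arrays of the series, 3 DKO and 3 DHet, and they were taken by genotype and title alone, with no use of measured values. Each array was hybridised with lung RNA pooled from 3 animals, and the titles call the arrays biological replicates. The series holds 9 groups, which are wild type (WT), DHet and DKO in 3 age sets. For these 6 arrays and the 3 WT arrays of the same set, the title and the characteristics disagree on the age, with 1 day in the first and 8 days in the second. The set is therefore named by its title, and no order in age is read between it and the set titled 8 day. DKO pools carry mutations of both receptors on both alleles as the label knock-out implies, DHet pools are labelled heterozygous for both, and WT pools came from age-matched C57BL6 mice. The sources used here do not give the strain of the mutants, the kind of allele or the deleted parts of the genes. A p in this comparison measures the spread between pools, and in whole lung fewer cells of a type and less RNA per cell cannot be told apart.

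Fibroblast growth factor (FGF) receptors are tyrosine kinases of the cell surface that bind FGF ligands together with heparan sulphate or a Klotho co-receptor. They signal through the docking protein Frs2 to the Ras and ERK pathway and raise transcripts of their own feedback inhibitors, such as the Sprouty and Dusp genes. In mouse lung, Fgfr3 and Fgfr4 are known for a shared role in the formation of alveoli after birth, when septa with elastic fibres divide the air sacs.

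The stretches before the start of 3 genes are shown because 2 are the mutated receptors and Lrrc23 is the only named gene that rose past the test. Each is the 250 bases that end at the base before the RefSeq start site on the GRCm38.p6 build, written in the direction of the gene. Fgfr3 is at chr5:33721474-33721723 on the plus strand, Fgfr4 at chr13:55152568-55152817 on the plus strand and Lrrc23 at chr6:124779728-124779977 on the minus strand. Capitals mark the letters that matched 1 of 4 motifs searched on both strands.
Fgfr3: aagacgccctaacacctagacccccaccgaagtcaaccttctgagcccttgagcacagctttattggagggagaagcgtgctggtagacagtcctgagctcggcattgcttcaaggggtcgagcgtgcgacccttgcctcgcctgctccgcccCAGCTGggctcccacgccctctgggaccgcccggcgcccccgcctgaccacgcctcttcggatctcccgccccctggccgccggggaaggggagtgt
Fgfr4: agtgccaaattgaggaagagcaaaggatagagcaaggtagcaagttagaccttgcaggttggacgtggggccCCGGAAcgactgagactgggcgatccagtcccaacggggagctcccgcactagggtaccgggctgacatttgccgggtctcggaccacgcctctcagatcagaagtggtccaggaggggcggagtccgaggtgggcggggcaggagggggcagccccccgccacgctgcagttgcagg
Lrrc23: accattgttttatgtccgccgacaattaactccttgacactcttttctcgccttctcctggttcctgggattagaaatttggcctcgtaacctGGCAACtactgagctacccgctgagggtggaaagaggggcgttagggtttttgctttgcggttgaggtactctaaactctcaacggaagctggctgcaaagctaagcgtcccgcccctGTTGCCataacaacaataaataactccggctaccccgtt
In Fgfr3 the capitals are an E-box (CAGCTG), from 97 to 92 bases before the start, and 13% of 32851 RefSeq promoters of this length hold those letters. In Fgfr4 they are an ETS core (CCGGAA), from 178 to 173 bases before the start, which 12% of the promoters hold. In Lrrc23 they are an X-box half-site (GTTGCC) on the minus strand, from 157 to 152 bases before the start, and again on the plus strand, from 39 to 34 bases before it. The half-site is in 10.4% of the promoters, and the TATA box (TATAAA), searched as the fourth motif, is in 12.4%. These matches describe letters in the windows and are not measured sites.

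Few transcripts passed the test between DKO and DHet lung. Of 27022 probe sets tested with limma, 7 passed an adjusted p of 0.05, which is 0.0259% of those tested, and 6 of the 7 were lower in DKO (0.0222%). They were Fgfr3, the adhesion gene Clmp, the ceruloplasmin gene Cp, the calcium channel gene Cacna1d, the matrix-associated gene Mxra8 and a probe set with no gene name in the annotation used. The only probe set higher in DKO (0.0037%) was that of Lrrc23, a leucine-rich repeat protein of the radial spokes of cilia. These differences lay between 1.31-fold and 1.83-fold. The calls rest on 1 spread per probe set shared by all 9 groups, and the arrays of DHet and DKO in this set were more spread than all other arrays. Their root mean square deviation from the group mean was between 0.151 and 0.216 log2, against 0.1 to 0.118 in the WT arrays of the same set and 0.0928 to 0.143 in the arrays of the other sets. With the spread of the 9 arrays of this set alone, or of the 6 compared, 0 probe sets passed limma's adjusted p, with 665 and 362 at an unadjusted p under 0.05, against 1201 (4.44%) in the fit over all arrays.

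The mutated receptor Fgfr3 was lower in every DKO array. Its brighter probe set read 10.36, 10.34 and 9.94 log2 in the DHet arrays 1 to 3 and 9.67, 8.99 and 9.51 in the DKO arrays 1 to 3. In WT it read 10.72, 10.57 and 10.81. The 3 genotypes did not overlap, and DKO array 2 was the lowest of the 9. Fgfr3 fell 1.77-fold from 10.22 ± 0.237 (SD, n = 3) in DHet to 9.39 ± 0.358 (SD, n = 3) in DKO, a log2 difference of -0.82 ± 0.131 (SE, limma adjusted p = 0.0232). Without DKO array 2 the difference was -0.62 (adjusted p = 0.0575), and without DHet array 1 it was -0.75 (adjusted p = 0.0804). The dimmer Fgfr3 probe set read 7.97, 8.20 and 7.94 in DHet, 7.57, 7.09 and 7.20 in DKO and 8.57, 8.47 and 8.66 in WT. These values did not overlap either, with a difference of -0.75 (adjusted p = 0.0986). The sources used here do not say where the probes lie relative to a deleted part, so a level above background in DKO checks nothing about the mutation.

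Fgfr4, the second mutated receptor, did not pass the test. Its brightest probe set read 9.33, 8.998 and 9.25 in DHet, 8.86, 8.56 and 8.68 in DKO and 8.86, 8.99 and 8.88 in WT. All DKO arrays were below all DHet arrays, and WT lay between them, close to DHet array 2 and DKO array 1. The difference was -0.49 ± 0.114 log2 (SE, unadjusted p = 0.000291, adjusted p = 0.22). The other kept probe sets of Fgfr4 differed by -0.22 and -0.11 (adjusted p = 1 for each), both without overlap, and 2 more were below the level filter. Of these, 1 read 6.35, 6.01 and 5.99 in DHet and 5.67, 5.87 and 5.75 in DKO. The other read 4.96, 5.01 and 5.14 in DHet and 5.09, 5.25 and 5.37 in DKO, with DKO arrays 2 and 3 above all DHet arrays. The other receptors of the family read close to each other in the genotypes, with differences of -0.07 for Fgfr1 and 0.05 for Fgfr2.

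**Figure D1:**
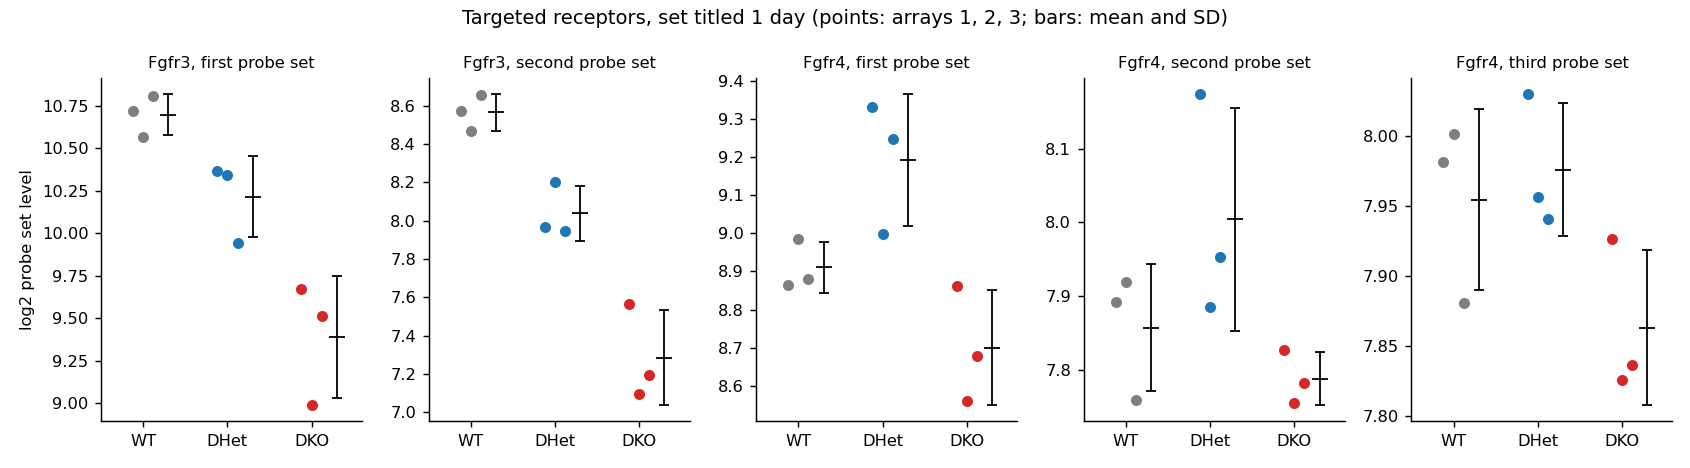
Log2 level of the Fgfr3 and Fgfr4 probe sets in each array of the set titled 1 day, by genotype, with bars for the mean and SD of 3 arrays. Fgfr3 stands highest in WT and lowest in DKO without overlap, while the Fgfr4 values of DKO lie below DHet and next to WT.

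The rest of the FGF pathway showed no other call. Of 22 ligands 8 had a kept probe set, and none had an unadjusted p under 0.05. Their median difference was -0.08 log2, against -0.02 over all 13079 genes, and their differences ran from -0.21 for Fgf7, a mesenchymal ligand of epithelial receptors, to 0.15 for Fgf22. Fgf10, which drives branching of the lung bud, had no kept probe set. Of 21 receptors and co-receptors 18 were kept, and 3 had an unadjusted p under 0.05, all lower in DKO. These were Fgfr3, Fgfr4 and Ext1, an enzyme that builds heparan sulphate chains, which differed by -0.32 (adjusted p = 1). The other kept probe set of Ext1 had the opposite sign. The median of the 18 was 0.00. Across all probe sets 3.08% were lower and 1.36% higher in DKO at an unadjusted p under 0.05.

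Inside the cell, 16 of 23 signal transducers were kept and none had an unadjusted p under 0.05, with a median of -0.02. Plcg1, a phospholipase bound by activated receptors, had the smallest p of them at a difference of -0.17 (unadjusted p = 0.0554). Its other kept probe set had the opposite sign. Of 21 feedback and target genes 18 were kept, with a median of 0.03. The ERK phosphatase gene Dusp6, a target of FGF signalling, differed by -0.11, the feedback inhibitor Spry1 by 0.04, and the ETS factors Etv4 and Etv5 by -0.01 and -0.15. Dusp5, another ERK phosphatase gene, had the smallest p of the list, with a difference of 0.44 (unadjusted p = 0.0103, adjusted p = 0.861). The immediate early gene Egr1 differed by 0.61 (unadjusted p = 0.133), with arrays that overlapped.

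The other named genes that fell in DKO were at or above their WT level in DHet. Clmp, an adhesion molecule of epithelial tight junctions, read 6.95, 6.83 and 6.98 in DHet, 6.34, 6.03 and 5.89 in DKO and 6.33, 6.35 and 6.42 in WT. The DHet arrays were the highest of the 9, and DKO array 1 lay among the WT arrays. Clmp fell 1.78-fold, from 6.92 ± 0.0756 to 6.09 ± 0.228 (SD, n = 3 each), with a log2 difference of -0.83 ± 0.134 (SE, adjusted p = 0.0232). A second Clmp probe set read 7.87, 8.02 and 8.21 in DHet and 7.39, 6.97 and 7.17 in DKO, with a difference of -0.85 (adjusted p = 0.057).

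Cp encodes ceruloplasmin, a copper-binding ferroxidase. The called probe set read 8.68, 8.76 and 8.63 in DHet, 7.87, 7.70 and 8.12 in DKO and 8.52, 8.52 and 8.72 in WT. Here DHet and WT overlapped and the DKO arrays stood below both. Cp fell 1.73-fold in this probe set, from 8.69 ± 0.067 to 7.90 ± 0.211 (SD, n = 3 each), with a log2 difference of -0.79 ± 0.129 (SE, adjusted p = 0.0232). Its 7 other probe sets were all lower in DKO and none passed the test.

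Cacna1d encodes a pore-forming subunit of L-type calcium channels. It read 9.54, 9.17 and 9.14 in DHet, 8.62, 8.72 and 8.57 in DKO and 8.78, 8.85 and 8.77 in WT. DHet was the highest group without overlap, with array 1 above the others. Cacna1d fell 1.56-fold (9.28 ± 0.219 to 8.64 ± 0.0767, SD, n = 3 each, log2 -0.64 ± 0.107 SE, adjusted p = 0.0258). A second Cacna1d probe set lay closer together, at 8.00, 8.21 and 8.08 in DHet and 7.64, 7.97 and 7.90 in DKO. It did not pass the test.

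Mxra8, a membrane protein with immunoglobulin-like domains, read 11.73, 11.67 and 11.59 in DHet, 11.29, 11.27 and 11.26 in DKO and 11.05, 11.08 and 11.29 in WT. DKO overlapped WT and stood below DHet. Mxra8 fell 1.31-fold (11.66 ± 0.0668 to 11.27 ± 0.0168, SD, n = 3 each, log2 -0.39 ± 0.069 SE, adjusted p = 0.0446). The unnamed probe set read 8.11, 8.04 and 8.01 in DHet, 7.27, 6.95 and 7.31 in DKO and 7.07, 7.38 and 7.60 in WT, and had the smallest p of all (log2 -0.87 ± 0.112 SE, adjusted p = 0.00296).

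Lrrc23 went the other way. It read 8.46, 8.40 and 8.61 in DHet, 8.86, 9.48 and 9.07 in DKO and 9.16, 9.15 and 9.16 in WT. DHet was the lowest group and DKO array 2 the highest array. Lrrc23 rose 1.57-fold from 8.49 ± 0.109 to 9.14 ± 0.313 (SD, n = 3 each), by 0.65 ± 0.115 log2 (SE, adjusted p = 0.0479), and without DKO array 2 the difference was 0.48 (adjusted p = 0.179).

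**Figure D2:**
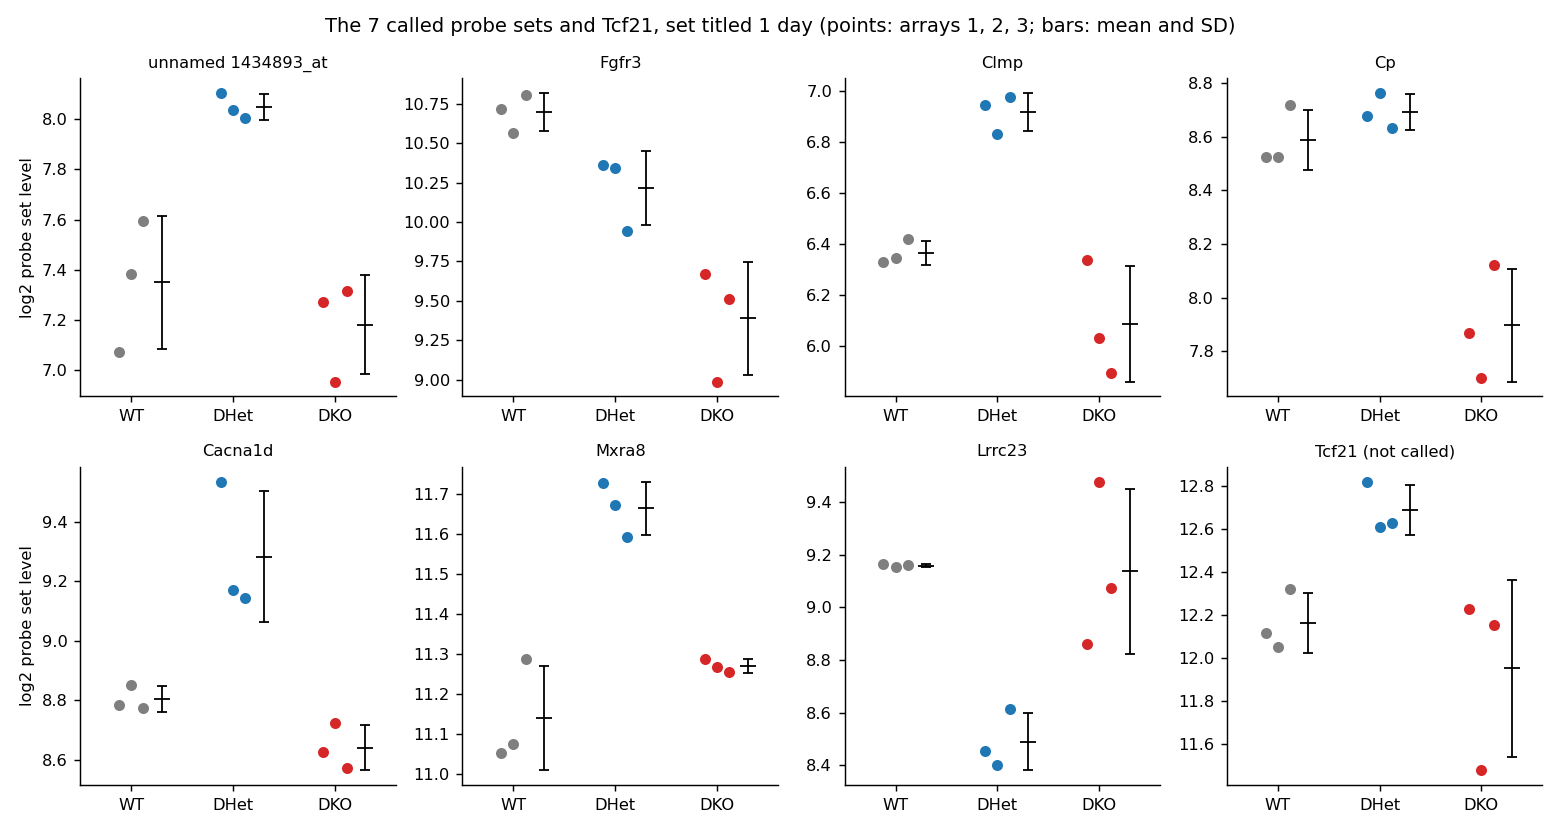
Log2 level of the 7 probe sets that passed the test, and of Tcf21, which did not, in each array of the set titled 1 day, by genotype, with bars for the mean and SD of 3 arrays. DKO lies apart from DHet in each panel, and the WT level lies near DKO for Clmp, Cacna1d, Mxra8, Lrrc23 and the unnamed probe set, near DHet for Cp and above both for Fgfr3.

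The comparisons of either genotype with WT share arrays with this one, so their values are only set side by side. Against WT, DHet differed by -0.48 in Fgfr3, 0.55 in Clmp, 0.10 in Cp, 0.48 in Cacna1d, 0.53 in Mxra8 and -0.67 in Lrrc23. In the same order DKO differed from WT by -1.31, -0.28, -0.69, -0.16, 0.13 and -0.02. Over all probe sets tested, 5.08% passed limma's test between DHet and WT in this set and 0.81% between DKO and WT.

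How far the calls rest on single arrays was read from fits that leave 1 out. The count of 7 became 1 without DHet array 1, 22 without DHet array 2, 21 without DKO array 1 and 4 without DKO array 3. Of these, 1, 5, 6 and 3 were among the 7. Without DKO array 2 the count was again 7, but only 2 of them were among the first 7, and without DHet array 3 it was 10, with 6 among them. Without DHet array 1 and DKO array 2 together, a choice made after seeing the data, it was 13, of which 1 was among the 7. Fgfr3 then differed by -0.55 (adjusted p = 0.146).

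To describe the comparison beyond the calls, genes were ranked by p among probe sets whose DKO and DHet arrays did not overlap. Such probe sets made up 2.52% of those tested in the lower direction and 2.32% in the higher. The 7 genes taken in the lower direction after the called ones had adjusted p values between 0.0522 and 0.085, and their values are given without a call. Gask1b, a Golgi-associated kinase-like protein, had the largest difference. It read 10.08, 9.64 and 9.64 in DHet, 9.37, 8.33 and 8.73 in DKO and 8.54, 8.54 and 8.96 in WT, a difference of -0.98 ± 0.177 (SE, adjusted p = 0.0522). Its DHet arrays stood above WT as well as DKO.

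Pgbd5, derived from a piggyBac transposase, resembled Cp in that DHet and WT overlapped above DKO. It read 8.12, 8.25 and 8.16 in DHet, 7.34, 7.57 and 7.72 in DKO and 8.10, 8.12 and 8.49 in WT, a difference of -0.63 (adjusted p = 0.057). The amino acid transporter Slc38a5 read 10.48, 9.98 and 10.18 in DHet against 9.72, 9.62 and 9.51 in DKO (difference -0.60, adjusted p = 0.057). Its WT arrays, between 9.81 and 9.88, lay between the mutants.

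The uroplakin gene Upk1b, a marker of mesothelium, differed by -0.53 and the cytoskeletal gene Specc1l by -0.43 (adjusted p = 0.057 for each). The LIM domain gene Limd1 differed by -0.48 and the nucleoside transporter Slc29a1 by -0.42 (adjusted p = 0.085 for each). All 4 had DKO arrays below DHet arrays, as the ranking required. Of 12 mesothelium markers 7 were above 0 with a median of 0.04, and Upk3b, another uroplakin gene, differed by 0.30 without overlap (unadjusted p = 0.0266, adjusted p = 1).

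In the higher direction 11 genes followed Lrrc23, with adjusted p values of at least 0.0907. Enc1, an actin-binding protein, read 9.03, 8.83 and 8.92 in DHet and 9.35, 9.17 and 9.45 in DKO, a difference of 0.39. The matricellular gene Thbs1 read 10.82, 11.09 and 11.68 in DHet and 11.77, 11.80 and 11.85 in DKO, a difference of 0.61 (adjusted p = 0.36). Sprr1a, a cornified envelope protein, read 6.80, 7.27 and 7.99 in DHet and 8.03, 8.18 and 8.09 in DKO, a difference of 0.75 (adjusted p = 0.374). In both genes the 3 DKO arrays lay close together and DHet array 3 reached almost to them. The oestrogen-responsive gene Greb1 differed by 0.61, Apln, the ligand apelin, by 0.45, Ncf1, a subunit of the phagocyte oxidase, by 0.44, and Rem2, a small GTPase, by 0.43. Cenpf, a kinetochore protein, differed by 0.29, Ank2, an ankyrin, by 0.27, Creb3l2, a transcription factor, by 0.25, and Polb, a DNA repair polymerase, by 0.24.

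**Figure D3:**
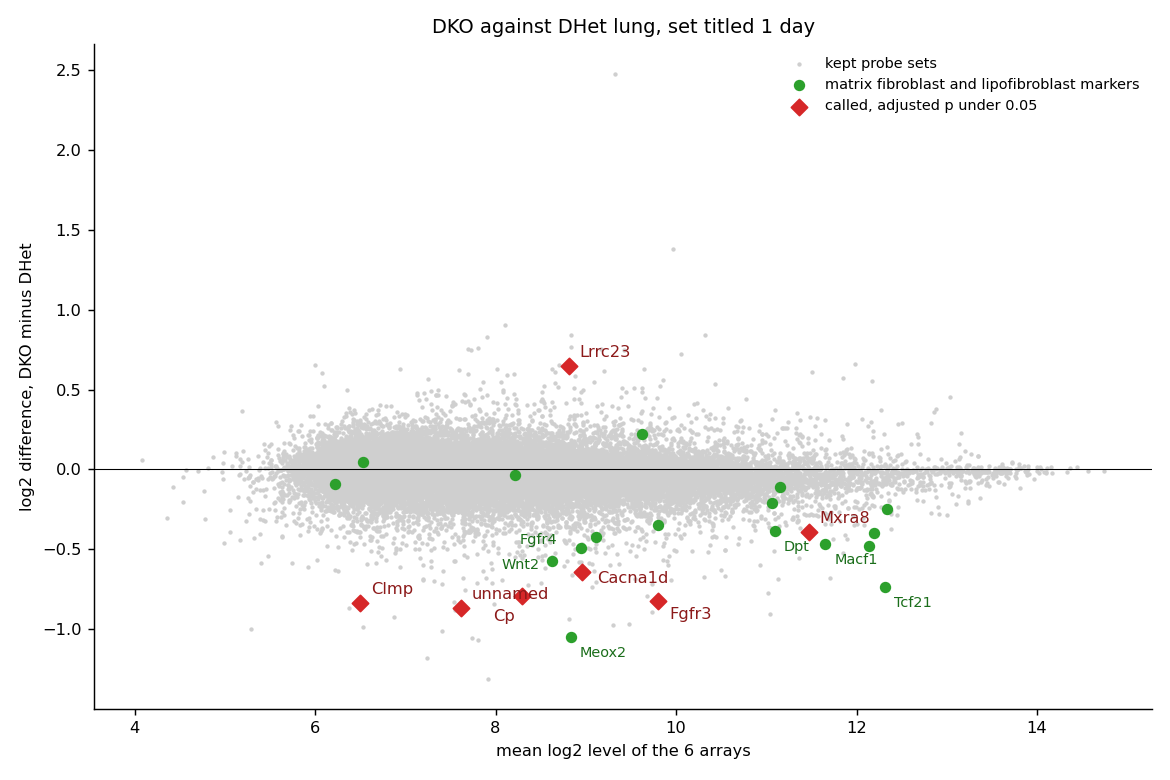
Log2 difference DKO minus DHet against the mean log2 level of the 6 arrays for each of the 27022 probe sets tested, with the 7 called probe sets as red diamonds and the matrix fibroblast and lipofibroblast markers as green points. Most probe sets lie near 0, and the markers lie mostly below it although none was called.

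The cell marker list with the lowest median was that of matrix fibroblasts and lipofibroblasts, the resident interstitial cells of the alveolar wall. Of 18 markers 17 had a kept probe set and 0 passed the test. At an unadjusted p under 0.05, 10 of the 17 were lower in DKO and 1, Col14a1, was higher, against 3.08% lower and 1.36% higher among all probe sets. The median difference was -0.38 log2, against -0.02 over all genes, and 15 of the 17 were below 0. The list was chosen with earlier results of these data known and holds Fgfr4 itself. With the spread of the 6 arrays alone 6 of the 17 had such a p, and without DHet array 1 and DKO array 2 together 8 had, with a median of -0.24.

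Tcf21, a transcription factor that defines lung mesenchyme, read 12.82, 12.61 and 12.63 in DHet, 12.23, 11.48 and 12.15 in DKO and 12.11, 12.05 and 12.32 in WT. DHet was the highest group and DKO array 2 stood lowest, with a difference of -0.73 ± 0.153 (SE, unadjusted p = 8.35e-05, adjusted p = 0.113). Macf1, which links actin to microtubules, read 12.07, 11.79 and 11.81 in DHet and 11.63, 11.15 and 11.49 in DKO, a difference of -0.47 (adjusted p = 0.206). Its WT arrays, between 11.40 and 11.75, overlapped DKO.

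In the matrix protein gene Dpt, WT and DHet overlapped above DKO. It read 11.19, 11.17 and 11.49 in DHet, 10.76, 10.95 and 10.99 in DKO and 11.35, 11.25 and 11.51 in WT, a difference of -0.38 (adjusted p = 0.432). The collagen gene Col13a1 differed by -0.35 and the lipolysis inhibitor G0s2 by -0.42, both without overlap. Npnt, a ligand of integrins in basement membranes, differed by -0.40 and Limch1, an activator of non-muscle myosin, by -0.25, with arrays that overlapped.

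Meox2, a homeobox factor, showed the widest spread among the members named. It read 10.60, 8.41 and 9.07 in DHet, 9.19, 7.64 and 8.11 in DKO and 8.09, 7.83 and 8.77 in WT, so DHet array 1 stood apart and the genotypes overlapped. Its difference was -1.05 ± 0.368 (SE, adjusted p = 0.843). Wnt2, a mesenchymal signal needed for lung growth, read 9.32, 8.23 and 9.18 in DHet and 8.40, 8.56 and 8.05 in DKO, a difference of -0.58 (adjusted p = 0.851). The low DHet array here was array 2. The mean over the kept markers was 10.25, 10.06 and 10.18 in DHet, 9.93, 9.74 and 9.80 in DKO and 9.95, 9.88 and 10.02 in WT, so DHet stood above DKO and WT, which overlapped.

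Endothelial markers were the next list in number of low members. Of 23 kept, 7 were lower and 1, Apln, was higher in DKO at an unadjusted p under 0.05. Among all probe sets 3.08% were lower and 1.36% higher at such a p. None of the 23 passed the adjusted test, and their median was -0.15. Tek, the angiopoietin receptor, read 10.97, 10.64 and 10.35 in DHet and 10.37, 9.50 and 10.07 in DKO, a difference of -0.68 (adjusted p = 0.27), and its arrays overlapped. The apelin receptor Aplnr differed by -0.68 (adjusted p = 0.701) and the capillary marker Car4 by -0.42 (adjusted p = 0.718). Against WT the median of the 23 endothelial markers was 0.04 in DKO and 0.15 in DHet. Among lymphatic endothelial markers all 8 kept members were below 0, with a median of -0.18 and 1 at an unadjusted p under 0.05, Vegfc at -0.72.

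Elastic fibre genes included 6 of 17 that were lower at an unadjusted p under 0.05, against 3.08% among all probe sets. Their median was -0.06. Fbln5, which places elastin on microfibrils, differed by -0.31, the interface protein Emilin1 by -0.32, the microfibril protein Mfap5 by -0.53, Fbln2 by -0.41, the crosslinking enzyme Loxl1 by -0.34 and Ltbp1, which stores latent TGF-beta, by -0.30. Adjusted p values of these members were at least 0.685. Eln, elastin itself, differed by -0.06. Against WT the median of the list was 0.11 in DKO and 0.19 in DHet, so by the median neither mutant stood below WT.

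Ciliated cell markers lay on the other side. Of 15 kept, 13 were above 0 with a median of 0.16, Lrrc23 passed the adjusted test, and 4 were higher and 1 was lower at an unadjusted p under 0.05. Rsph1, a radial spoke head protein, read 7.66, 7.82 and 7.96 in DHet and 8.02, 8.38 and 7.99 in DKO, a difference of 0.32 (adjusted p = 0.673). Capsl differed by 0.23 and the dynein heavy chain Dnah9 by 0.17. Tppp3, a tubulin-binding protein placed on the same list, differed by -0.60 (adjusted p = 0.619). Foxj1, the factor that drives ciliated cell fate, read 7.69, 7.71 and 7.79 in DHet and 8.03, 7.94 and 7.69 in DKO, and overlapped.

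The alveolar and club cell lists had medians below 0 and no called member. Of 16 type 1 cell markers 13 were below 0, with a median of -0.14 and 2 lower at an unadjusted p under 0.05. The median was -0.08 over 15 type 2 cell markers, with 1 lower at such a p, and -0.06 over 15 club cell markers, with 2 lower. Macrophage markers had a median of 0.13 with 0 of 19 at an unadjusted p under 0.05. Heart muscle genes, which could enter with tissue dissected beside the lung, had a median of -0.15 with 0 of 15. The lung label was checked on Sftpc, the surfactant protein gene of type 2 cells, which read between 14.52 and 14.59 in the 6 arrays.

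**Figure D4:**
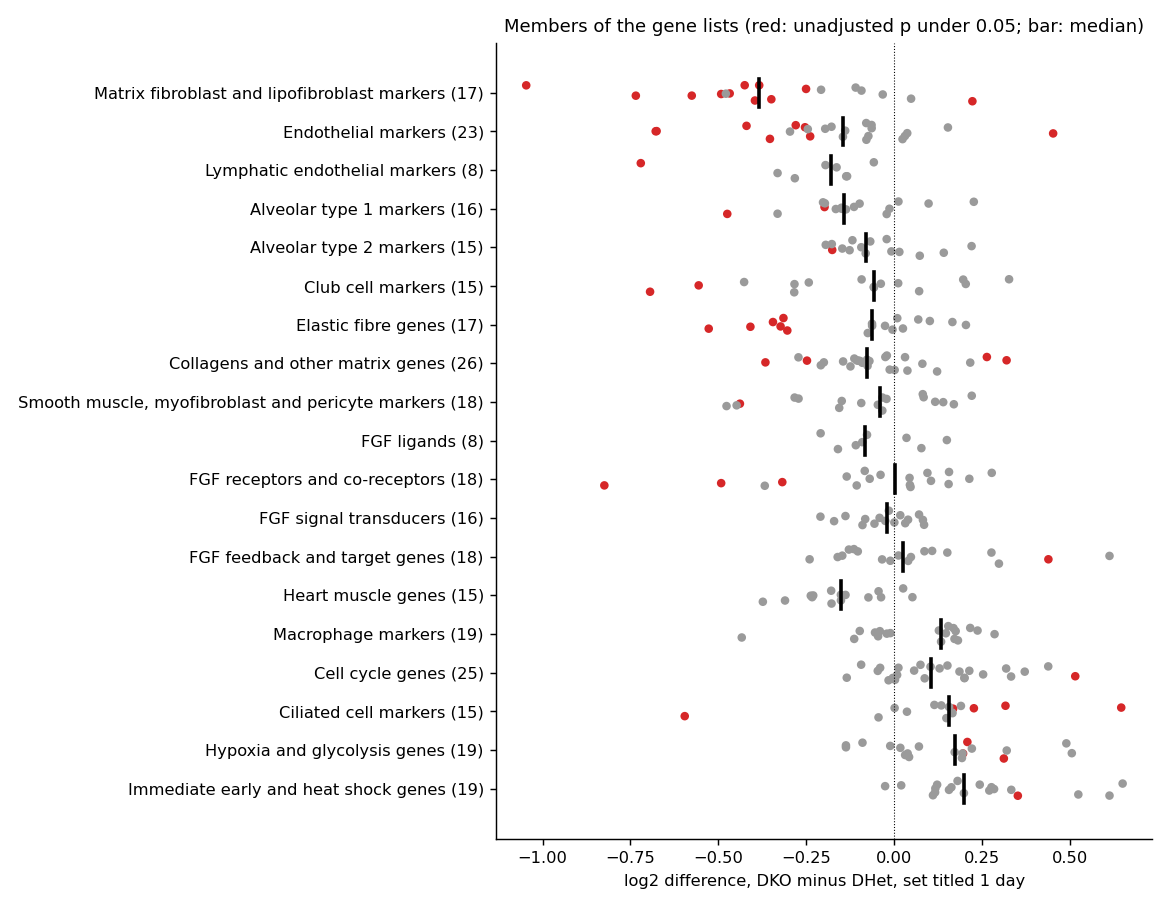
Log2 difference DKO minus DHet of the members of gene lists in the set titled 1 day, 1 point per gene, red at an unadjusted p under 0.05, with a bar at the median and the number of members kept in brackets. Matrix fibroblast and lipofibroblast markers lie lowest among the cell type lists at -0.38, and ciliated cell markers are above 0 at 0.16.

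The 6 arrays differed from each other within the genotypes, and 1 of 3 sex-linked genes kept also separated DHet from DKO. The glucocorticoid responsive genes, a list that includes Fkbp5, averaged 10.05, 11.22 and 10.87 in DHet and 10.29, 10.89 and 11.04 in DKO, so that array 1 was lowest in each genotype. Immediate early and heat shock genes averaged 9.74, 9.76 and 9.9999 in DHet and 9.84, 10.52 and 9.90 in DKO, and hypoxia and glycolysis genes 8.92, 9.33 and 9.30 in DHet and 8.97, 9.74 and 9.25 in DKO. DKO array 2 was highest in both lists, whose median differences were 0.20 and 0.17. Of the 19 immediate early and heat shock genes 18 were above 0 and 1 had an unadjusted p under 0.05. Xist, the transcript of the inactive X chromosome, read 10.91, 9.98 and 6.93 in DHet and 10.75, 10.84 and 10.37 in DKO in its brightest probe set. The Y-linked gene Eif2s3y read 7.74, 8.47 and 8.80 in DHet and 7.26, 6.90 and 7.67 in DKO, with DHet above DKO without overlap. It was the only 1 of the 3 sex-linked genes kept whose arrays did not overlap, and their median difference was -0.36. The liver gene Alb read 9.15 in DHet array 2 and at most 7.46 in the other 5 arrays. The part of these differences in the results, and that of the mix of sexes in the pools, was not tested.

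Genes that lie near the mutated receptors on their chromosomes were looked at apart from the receptors' own probe sets. Within 20 Mb of Fgfr3, 32 of 361 probe sets (8.86%) were lower and 1 was higher in DKO at an unadjusted p under 0.05, against 2.03% lower on the rest of the chromosome and 3.08% among all probe sets. These are counts of probe sets, and some genes were counted more than once among the 32, such as Slit2, Ldb2, Sema3c and Sod3. None of the 361 was called, and the median difference was -0.03. The 4 genes with the smallest p were Armc10 at -0.24, Atraid at -0.23, Sema3c, a guidance cue, at -0.40, and Slit2, another guidance cue, at -0.74. In the same order they differed by 0.01, -0.29, 0.32 and 0.59 in the 28-day set. In the set titled 8 day they differed by -0.04, -0.07, 0.17 and -0.80. Within 20 Mb of Fgfr4, 13 of 389 (3.34%) were lower and 3 higher, and the smallest p values were those of Ptpdc1 at -0.38, the tubulin-binding gene Tppp at -0.86, Rmi1 at -0.25 and Agtpbp1 at -0.30. The sources used here do not give the strain of the DNA around the alleles, and its part in these values was not tested.

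The other matrix and signalling lists held no member that passed the adjusted test. Over 26 collagens and other matrix genes the median was -0.08, with 2 lower and 2 higher at an unadjusted p under 0.05. Col4a4, a chain of basement membrane collagen, differed by -0.37, the proteoglycan Bgn by -0.25 and Col15a1 by 0.26. Of 16 matrix proteases and inhibitors the inhibitor Timp2 alone had such a p, at -0.27. Among 26 TGF-beta and BMP pathway genes the ligand Bmp4 differed by -0.32 and the inhibitory Smad6 by 0.33, and among 23 Wnt pathway genes Wnt2 was the lowest of those with such a p and Lef1 was at 0.24. The binding protein Igfbp2 differed by -0.47 (adjusted p = 0.938) here. It was called in both other sets, at -0.72 (28 days, adjusted p = 0.026) and -0.93 (titled 8 day, adjusted p = 0.00707). Of 25 cell cycle genes 19 were above 0 with a median of 0.10, and the proliferation marker Mki67 differed by 0.52 (unadjusted p = 0.0326). Of 19 hypoxia and glycolysis genes 3 had an unadjusted p under 0.05, all higher, with Ldha, lactate dehydrogenase, at 0.31.

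The same genotypes were compared in the other age sets, which share no arrays with this one. At 28 days 3.03% of probe sets passed limma's test, and in the set titled 8 day 1.61%, against 0.0259% here. Of the 7 called probe sets 5 had the same sign at 28 days, 1 of them called, and 6 in the set titled 8 day, 3 of them called. Over all probe sets 55.8% and 54.6% had the same sign. Fgfr3 differed by -0.58 at 28 days (adjusted p = 0.0137) and by -0.47 in the set titled 8 day (adjusted p = 0.0773). Cacna1d, Mxra8 and Lrrc23 were called in the set titled 8 day, at -0.51, -0.30 and 0.53, and not in the 28-day set, at -0.14, 0.02 and 0.28.

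A moderated F test of whether the difference between DKO and DHet was unlike in this set and the others called 235 of 27022 probe sets (0.87%). Among the named genes that stand out here it called Clmp (adjusted p = 0.00681), which differed by -0.83 in this set, 0.13 in the set titled 8 day and 0.21 in the 28-day set. It did not call Fgfr3 (adjusted p = 0.84), Cp (0.15), Cacna1d (0.25), Mxra8 (0.0709) or Lrrc23 (0.704), so for these genes no difference among the sets was shown. The matrix fibroblast and lipofibroblast markers had medians of 0.03 at 28 days and -0.07 in the set titled 8 day, and 1 of the 17 passed the F test. In the set titled 8 day Fgfr4 fell by 0.70 log2 (adjusted p = 0.00212) and Wnt2 by 1.65 log2 (adjusted p = 0.000134). Array medians were 6.68 to 6.74 log2 in the set titled 1 day. They were 5.84 to 5.89 at 28 days and 5.28 to 5.32 in the set titled 8 day. Values of the sets may not be on 1 scale, and the part of this in the F test was not tested.

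**Figure D5:**
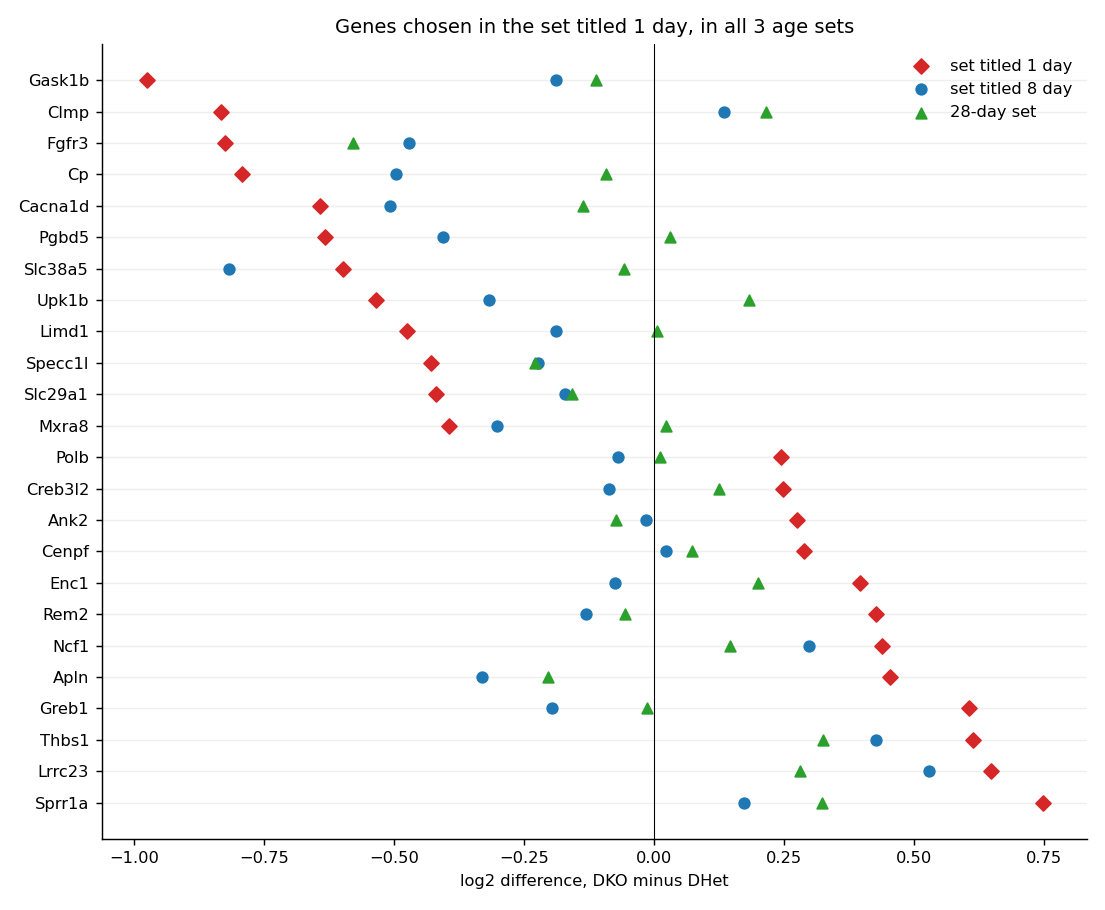
Log2 difference DKO minus DHet of the 24 genes ranked in the set titled 1 day (red diamonds), with the same difference in the set titled 8 day (blue circles) and the 28-day set (green triangles). Fgfr3 lies below 0 in all 3 sets and Lrrc23 above, while Clmp is below 0 only in the set titled 1 day.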

How the data were processed

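Lung RNA was hybridised to Affymetrix 3' expression arrays, per the labels' protocols. The authors deposited 1 table of log2 levels for 45101 probe sets. The sources used here do not give the summarisation or normalization. Within a set the distributions of the arrays are nearly alike, while the array medians differ between sets.

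Leaving out 64 control probe sets left 45037, of which 34945 name 1 gene, 932 several and 9160 none. Symbols were updated through Entrez identifiers for 34741 and kept as given for 204. Probe sets with a mean over the 26 arrays in the upper 60% (at least 5.38 log2) were kept. All 26 arrays were fitted with limma 3.58.1 in R 4.3.3 (9 group means, no covariates, 17 residual and 4.89 prior degrees of freedom), two-sided, with Benjamini-Hochberg adjustment over 27022 probe sets and calls at an adjusted p under 0.05. The number of arrays limits the precision. The pipeline was tested on simulated data.

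Named genes are Fgfr3, Fgfr4 and the FGF genes of smallest p, 12 genes in each direction (called and without overlap first, then by p without overlap), up to 3 genes per list and 4 near each receptor. Other genes in the text, among them FGF pathway and fibroblast list members, Foxj1, Eln, Alb, Fkbp5 and Eif2s3y, were chosen after their values were seen. The 38 lists hold 683 genes, 555 of them kept, each as its probe set of highest mean. Members and lists were chosen with earlier results of these data known. Promoters are from RefSeq (GRCm38.p6), matched by symbol; motif letters were searched on both strands.

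Alternatives changed the arrays fitted, the filter, the variance model, the scaling, a replicate block and the arrays left out.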

Additional observations from a re-analysis of the deposited data

Results flagged for a closer look

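The difference between DKO and DHet lung was unlike among the age sets, by a moderated F test in limma, for 8 probe sets of the genes named. Values are log2 differences in the set titled 1 day, the set titled 8 day and the 28-day set, in that order. The array medians differ between the sets, and the part of this in the values was not tested. Clmp (adjusted p = 0.00681) differed by -0.83, 0.13 and 0.21. Upk1b (adjusted p = 0.0264) differed by -0.53, -0.32 and 0.18. The transporter Slc38a5 (adjusted p = 0.0403) differed by -0.60, -0.82 and -0.06, with the 28-day value nearest 0. Its contrast between the set titled 1 day and the 28-day set did not pass on its own (limma adjusted p = 0.191). Apln (adjusted p = 0.0489) was above 0 only in the set titled 1 day, with 0.45, -0.33 and -0.20. The microfibril gene Mfap5 (adjusted p = 0.0174) had the opposite order, with -0.53, 0.82 and 0.71. The collagen gene Col15a1 (adjusted p = 0.00646) differed by 0.26, 0.30 and 1.04. The surfactant protein gene Sftpa1 (adjusted p = 0.00979) differed by -0.18, 0.49 and 0.07. The pericyte marker Rgs5 (adjusted p = 0.000111) differed by -0.44, 0.41 and 2.17. In the set titled 1 day only Clmp of these was called on its own.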

How the results depend on the processing

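The count of 7 probe sets called in the set titled 1 day was 0 with the spread of the 9 arrays of that set, 0 with that of the 6 arrays compared, 1 with a replicate block within each set, 12 with a filter on the upper 40% of means, 3 with array weights and 4 after quantile normalization within sets. Leaving out 1 array gave 1 to 22. Without DHet array 1 and DKO array 2 together it was 13. The count of 235 probe sets that differed among sets was 140 with the replicate block, 916 with array weights and 455 without those 2 arrays, and 192 to 320 when 1 array was left out or the filter or scaling was changed. The cause of these shifts was not tested. The fits on 9 and 6 arrays have fewer arrays, and the DHet and DKO arrays of this set were also more spread than all other arrays. Same-numbered DKO and DHet arrays deviated from their group means with correlations of 0.548, 0.00402 and -0.334, so the numbers were not taken as pairs. Arrays of unlike number reached 0.566 (DKO array 3 with DHet array 2) and 0.388 (DKO array 2 with DHet array 3). What such arrays share was not tested. In the block fit Fgfr3 had an adjusted p of 0.0586. Kit and Aldh1a1 changed sign without DHet array 1 and DKO array 2, to 0.00418 and 0.058, with ranges of -0.53 to -0.17 for Kit and -0.90 to -0.16 for Aldh1a1 when 1 array was left out. Over the 78 probe sets named by rule, and not the other list members, 1238 values kept their direction and side of the threshold. Another 53 lost a call and 22 gained 1. Most values that were kept came from probe sets uncalled in the main fit, so their number does not measure how stable the calls are. Counting the main fit, the called probe sets of Fgfr3 and Cp passed in 11 of 18 fits each. Cacna1d passed in 10 of 18, Clmp in 9 of 17, Lrrc23 in 7 of 18 and Mxra8 in 6 of 18.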
